A study of Mus musculus with 4 samples.

Results

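Integrins and laminins are the cell-surface receptors and the basement membrane proteins through which cells hold to the matrix around them. The genes were taken by symbol: every integrin alpha chain gene beginning Itga, the integrin beta chain genes Itgb1 to Itgb8, and the laminin alpha, beta and gamma chain genes. This gave 37 of the 43998 entries of the deposited table, and the 36 described here encode 18 integrin alpha chains, 8 integrin beta chains and 10 laminin chains. The table gives RNA levels of spermatogonia from testes of C57BL/6 mice at postnatal day 4, enriched by magnetic separation with an antibody to CD90.2, the THY1 protein found on undifferentiated spermatogonia. There were 2 libraries from control mice and 2 from mice labelled as germ cell RA signaling mutants, in which the response of germ cells to retinoic acid, the vitamin A derivative that sets spermatogonia on the way to meiosis, was impaired. The sources used here do not give the altered gene, the promoter that drove the change or the number of animals per library.

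An integrin is a pair of chains, 1 alpha and 1 beta, that spans the cell membrane and links matrix or another cell to the actin cytoskeleton. A laminin is a trimer of 1 alpha, 1 beta and 1 gamma chain, and laminin sheets form the base of the basement membrane that surrounds each seminiferous tubule. In the neonatal testis the chains alpha6 and beta1 are surface markers used to enrich spermatogonial stem cells, and alpha-v is used to set other cells aside. The beta2 and beta7 integrins are carried by leukocytes, while Sertoli and peritubular myoid cells build the tubule's laminin.

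The authors deposited 1 RPKM value per gene and genotype, made from both libraries together. RPKM is a read count scaled to transcript length and to the reads sequenced. With 1 value per genotype there is no spread between replicates to hold a difference against, and hence no SD or p-value. Differences are log2((mutant RPKM + 1) / (control RPKM + 1)), which shrinks those of lowly expressed genes, and plain folds are ratios of RPKM. Low values rose in steps of whole reads, which placed the depth near 56.3 M control and 57.3 M mutant reads. Read numbers of single genes are estimates from this depth and the longest coding transcript, and the 95% intervals of ratios cover counting error only. Markers of the cells the beads could carry over were present: the macrophage gene Lyz2 had 1339 RPKM in control against 428 RPKM in mutant, and no gene of the cell type lists was at 0 in both. The germ cell helicase gene Ddx4 stood at 88.6 and 114 RPKM. In such bulk RNA, fewer cells of a type and less RNA per cell cannot be told apart.

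The promoters of 3 chains are printed first, because Itgam and Itgax are neighbouring genes of leukocyte chains that were lower in the mutant, while Itgb1 is carried by most cell types. Each line gives the 250 bases before the RefSeq transcript start on the plus strand of GRCm38.p6, read 5′ to 3′. Capitals mark GAGGAA on either strand, the core bound by PU.1, a transcription factor of macrophages, and by other ETS factors.
Itgam, chr7:128062390-128062639: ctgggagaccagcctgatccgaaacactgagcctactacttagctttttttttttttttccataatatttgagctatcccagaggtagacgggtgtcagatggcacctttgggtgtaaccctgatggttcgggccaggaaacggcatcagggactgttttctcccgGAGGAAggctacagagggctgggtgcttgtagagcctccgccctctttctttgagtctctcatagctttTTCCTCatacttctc
Itgax, chr7:128129300-128129549: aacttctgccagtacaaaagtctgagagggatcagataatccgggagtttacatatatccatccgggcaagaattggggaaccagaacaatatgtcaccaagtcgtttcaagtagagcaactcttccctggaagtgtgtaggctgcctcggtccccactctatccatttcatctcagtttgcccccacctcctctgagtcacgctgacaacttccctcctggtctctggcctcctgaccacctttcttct
Itgb1, chr8:128685404-128685653: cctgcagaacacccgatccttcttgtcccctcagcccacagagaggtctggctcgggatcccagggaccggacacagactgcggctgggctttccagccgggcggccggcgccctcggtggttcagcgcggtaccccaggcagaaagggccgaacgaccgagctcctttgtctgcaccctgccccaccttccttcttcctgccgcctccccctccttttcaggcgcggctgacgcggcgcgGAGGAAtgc
The Itgam window held GAGGAA at 84 bases before the start and its reverse complement at 15 bases before it. The Itgax window held none, and the Itgb1 window held 1, at 9 bases before the start. The window of Itgb7, the only other leukocyte chain gene with one, held none. Itga2b and Itgav, which are not in the leukocyte group, held 2 each, as Itgam did. Of the 32851 RefSeq promoter windows of this length, 23.3% held the 6 letters on either strand. So did 13 of the 26 windows at hand, which cover 23 member genes. The leukocyte chain genes Itgb2, Itgal, Itgad and Itgae had no window among these, nor did Itga6. G and C made up 49.6% of the Itgam window, 50% of the Itgax window and 68% of the Itgb1 window, beside a median of 52.4% over all windows. The GC box GGGCGG was in 9 of the 26 member windows and in 32.7% of all windows. These matches are letters in a window and not binding sites.

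The mutant values of most chains were lower, by moderate amounts. Itga10 could not be read alone, since the table gives it 1 value together with another gene. Of the 35 chains with a value of their own, 29 lay below 0 and 6 above, beside 46.4% below 0 among all 29103 genes above 0 RPKM. Only Itgam was 2-fold lower, 1 of 35 beside 2.46% of all those genes, and no chain was 2-fold higher. A difference of 1.5-fold or more, a size chosen after the values were seen, was met by 14 chains, all lower, beside 7.98% of all those genes. The median over the 35 chains was -0.38, and that over all those genes 0.02.

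A minimum of 1 RPKM in either genotype left 31 chains and 16473 genes. Itga2, Itga11, Itgb4 and Itgb6 fell under it. Itgax and Lamb3 passed through the control value alone, so their difference was partly set by the minimum. Of the 31, 27 lay below 0, beside 49.6% of all genes and 55.7% of protein-coding genes. With values rescaled so that a germ cell gene list had a median of 0, all 31 lay below 0, as did 89.1% of all genes, and 19 were 2-fold lower, as were 24.5% of all genes. Without that rescaling, Itgam remained the only one 2-fold lower, beside 4.35% of all genes. In the same unscaled values, 4.4% of all genes and none of the 31 chains were 2-fold higher. Among protein-coding genes, 4.07% were 2-fold lower. With a pseudocount of 0.1, Itgax (-1.33) and Lamb3 (-1.97) were 2-fold lower as well, beside 6.72% of all genes, and with 0.5 Lamb3 was, beside 5.41% of all genes. At 1.5-fold, 14 chains were lower, beside 13.7% of all genes and 14.9% of protein-coding genes, and none was higher, beside 12.7% of all genes. The median was -0.49 over the 31 chains, 0.005 over all genes and -0.06 over protein-coding genes. By counting error alone, the ratio lay below 1 for 26 chains and above 1 for 4, and the interval of Itga8 held 1. The 4 include Lamc1, whose interval of 1 to 1.06 starts at 1 as rounded and rests on the estimated depth.

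**Figure D1:**
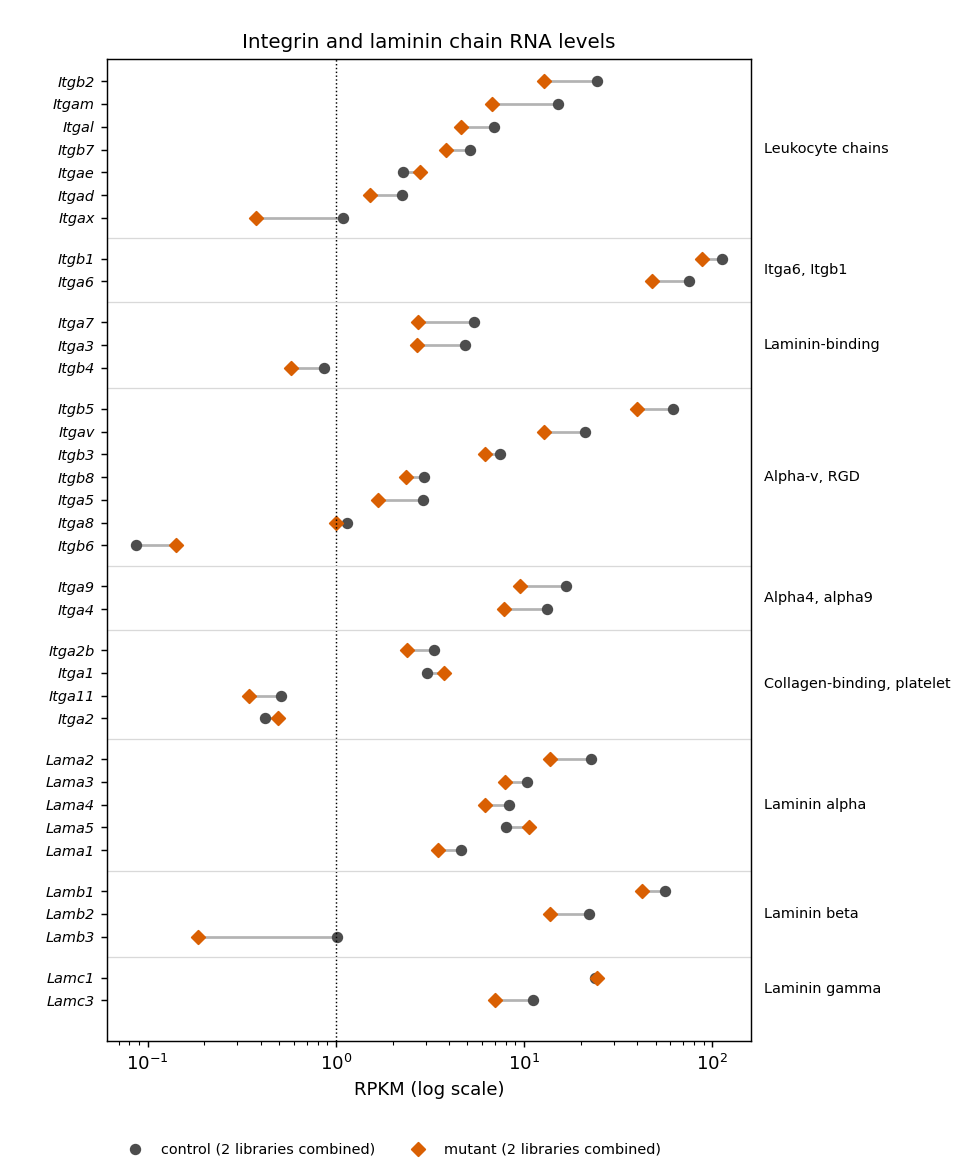
RPKM (log axis) of the 35 integrin and laminin chains with a value of their own, in control (circles) and mutant (diamonds), each from 2 libraries combined, with a dotted line at 1 RPKM. The diamond lies left of the circle for 29 chains, with the widest gap for Lamb3 (1.01 and 0.184 RPKM) and near overlap for Lamc1.

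The chains used to enrich stem spermatogonia were the most abundant of all. Itgb1 (chromosome 8, 128685654 to 128733200), the partner shared by most matrix-binding alpha chains, had 112 RPKM in control against 88.4 RPKM in mutant. Itga6 (chromosome 2, 71745616 to 71858416), whose product pairs with beta1 to bind laminin, stood at 75.3 and 48.1 RPKM. These ranked first and second among the 31 chains in both genotypes. Itga6 was 1.57-fold lower in the mutant (log2 difference -0.64, ratio 0.639, interval 0.624 to 0.654) on about 17382 control and 11296 mutant reads. Itgb1 was 1.26-fold lower (-0.33, ratio 0.793, interval 0.778 to 0.809), so that the Itga6 value was 0.675 of the Itgb1 value in control and 0.544 in mutant. Itgav, which marks cells to be set aside in stem cell enrichment, was 1.65-fold lower at 21 and 12.8 RPKM (-0.68). The germ cell list went the other way in the same values: 21 of its 24 genes were above 0, with a median of 0.64. The 3 below 0 were Kit, Gfra1 and Sall4. Thy1 itself stood at 7.11 and 8.61 RPKM. Sertoli cell markers, whose cells also carry alpha6 and beta1, were below 0 for 10 of 12 genes, with a median of -0.82 and a summed RPKM of 536 in control and 320 in mutant. Their part in the values of Itga6 and Itgb1 was not tested.

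The other laminin-binding integrin chains were low in both genotypes. Itga7, the laminin receptor chain known from muscle, stood at 5.42 and 2.72 RPKM, a ratio of 0.501 (interval 0.454 to 0.554). Itga3, a laminin receptor chain of epithelia, stood at 4.84 and 2.71 RPKM, a ratio of 0.561 (0.511 to 0.615). Both were lower by more than Itgb1, their partner. Itgb4, the hemidesmosome chain that pairs with alpha6, was at 0.87 and 0.574 RPKM, under the minimum. The Itga6 level was thus 86.5 times that of Itgb4 in control and 83.8 times in mutant. Peritubular myoid markers, from the contractile cells of the tubule wall, were below 0 for 5 of 5 genes, with a summed RPKM of 87.5 and 37.5. Acta2, their smooth muscle actin, stood at 66.1 and 25 RPKM. The part of these cells in the value of Itga7 was not tested.

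The leukocyte chains included the 1 member past 2-fold. Itgam encodes CD11b, the alpha chain of the complement receptor of macrophages and granulocytes, and lies on chromosome 7 from 128062640 to 128118491 in GRCm38 (GENCODE M21, as are the other positions of genes). It had 15.2 RPKM in control against 6.72 RPKM in mutant, about 3824 and 1722 reads, a 2.26-fold lower value (log2 difference -1.07, ratio 0.443, interval 0.418 to 0.469). In GENCODE M21, 68.7% of the Itgam exon bases are also in the same-strand gene Gm49368, which has no entry of its own in the table. Itgb2, the beta chain CD18 that pairs with Itgam's product, lies on chromosome 10 from 77530252 to 77565708. It stood at 24.5 and 12.8 RPKM, 1.91-fold lower (-0.88, ratio 0.524, interval 0.497 to 0.553).

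The other alpha chains that pair with beta2 were lower as well. Itgal, the alpha chain of LFA-1 on most leukocytes, stood at 6.92 and 4.63 RPKM (ratio 0.669, interval 0.623 to 0.718). Itgax, the alpha chain CD11c of dendritic cells and some macrophages, stood at 1.09 and 0.375 RPKM, about 236 and 82 reads (ratio 0.343, interval 0.262 to 0.441). Itgad, an alpha chain of tissue macrophages, stood at 2.25 and 1.51 RPKM (ratio 0.674, interval 0.585 to 0.776). Itgam, Itgax and Itgad follow one another on chromosome 7, with gaps of 11.1 kb and 3.72 kb, and Itgal lies 728 kb before Itgam. Itgax and Itgad share 384 stretches of 50 bases, 8.02% and 8.43% of theirs, and 19.7% of the Itgad exon bases overlap other genes, so that these values are less certain. Summed, the 4 alpha partners of beta2 came to 25.4 RPKM in control against 13.2 RPKM in mutant. The single beta2 value was close to the sum in each genotype, with 1.04 alpha per beta2 transcript level in control and 1.03 in mutant. Within the sum, the share of Itgam was 59.7% in control and 50.8% in mutant, and that of Itgal 27.2% and 35%.

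The beta7 side of the leukocyte chains differed less. Itgb7, which pairs with alpha4 or alphaE on lymphocytes and mast cells, stood at 5.13 and 3.86 RPKM (ratio 0.753, interval 0.673 to 0.843). Itgae, the alphaE chain CD103 of epithelial T cells and some dendritic cells, was higher in the mutant at 2.28 and 2.8 RPKM (ratio 1.23, interval 1.08 to 1.39). Its log2 difference of 0.21 became -0.43 on a scale that sets the germ cell list to 0. Itga4, which pairs with beta1 or beta7 and is found on leukocytes and other cells, stood at 13.2 and 7.84 RPKM (ratio 0.594, interval 0.571 to 0.617). In GENCODE M21, 8.04% of the Itga4 exon bases overlap Cerkl on the opposite strand. The 7 leukocyte chains had a median of -0.49, with 6 below 0, beside 49.6% of all genes and 55.7% of protein-coding genes. The median over all 31 chains was also -0.49, and that over the other integrin chains was -0.58.

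Markers of macrophages, neutrophils and mast cells, which carry these chains, were lower in the same values. Over all genes, 49.6% were below 0 and 4.35% were 2-fold lower. All 15 macrophage genes were below 0, with a median of -1.35 and 13 of them 2-fold lower, and their summed RPKM was 5004 in control and 1852 in mutant (ratio 0.37). The summed leukocyte chains had a ratio of 0.571, from 57.3 and 32.7 RPKM. Ptprc, the leukocyte common antigen CD45, was the macrophage-list gene nearest to 0, at 33.8 and 28 RPKM. Neutrophil genes were below 0 for 5 of 5 with a ratio of sums of 0.366, though Elane and Mpo, the granule enzymes that define their precursors, were under 1 RPKM in both. Mast cell genes were 2-fold lower for 8 of 8, from a summed 234 RPKM to 22.1 RPKM. Lymphocyte genes went both ways, with 3 of 8 below 0, a median of 0.07 and a ratio of sums of 0.731. Of these, Cd4 (21.7 and 9.98 RPKM) and the B cell gene Cd79b (12.2 and 4.32 RPKM) were 2-fold lower. Another B cell gene, Cd79a, went the other way at 1.08 and 1.67 RPKM. The T cell gene Cd3e stood at 1.05 and 1.45 RPKM, and the more abundant Cd3g at 17.2 and 18 RPKM. Of the dendritic cell genes, Zbtb46 alone reached the minimum with a value of its own, with 9.44 RPKM in control against 11.9 RPKM in mutant. Flt3 and Xcr1 stayed under 1 RPKM in both genotypes. The part of any of these cells in the leukocyte chain values was not tested.

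**Figure D2:**
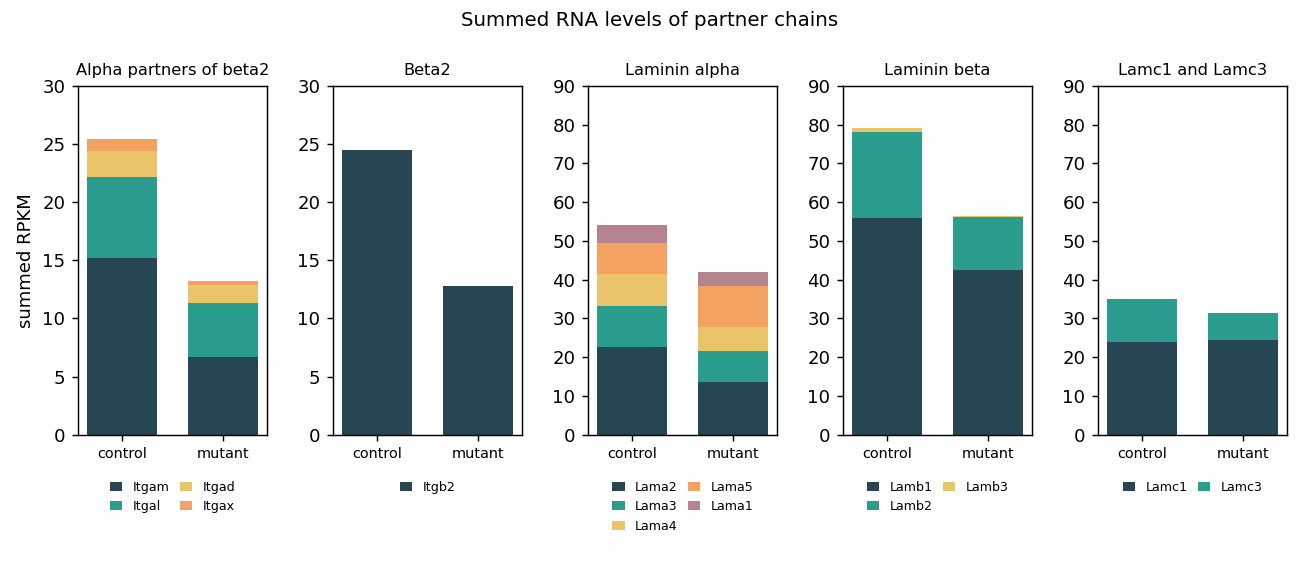
Summed RPKM of partner chains in control and mutant, each from 2 libraries combined, with 1 colour per chain, and with a vertical axis to 30 RPKM for the beta2 integrins and to 90 RPKM for laminins. The alpha partners of beta2 (25.4 and 13.2 RPKM) and beta2 itself (24.5 and 12.8 RPKM) have nearly equal bars in each genotype, while the sum of Lamc1 and Lamc3 differs least between genotypes (35 and 31.5 RPKM).

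Most integrin chains that bind the RGD sequence of fibronectin and vitronectin, or pair with those that do, were lower without reaching 2-fold. Itgb5, the most abundant partner of alpha-v here apart from Itgb1, stood at 61.5 and 39.7 RPKM (ratio 0.645, interval 0.626 to 0.665). It made up 85.5% of the sum of Itgb3, Itgb5, Itgb6 and Itgb8 in control and 82.1% in mutant, a sum that leaves out Itgb1. Itgb3, the platelet and osteoclast partner of alpha-v, stood at 7.42 and 6.18 RPKM (ratio 0.832). Itgb8, which serves to activate latent TGF-beta, stood at 2.94 and 2.35 RPKM (0.798), and Itgb6, an epithelial chain with the same task, was near 0 at 0.0872 and 0.141 RPKM. Of the chains that pair with beta1 alone, Itga5, the fibronectin receptor chain, stood at 2.89 and 1.68 RPKM (0.582). Itga8, the nephronectin receptor chain, was at the minimum with 1.15 and 1 RPKM, and its interval of 0.748 to 1.02 held 1. The 6 chains of this group above the minimum were below 0, beside 49.6% of all genes, with a median of -0.39. Itgb6, under the minimum, was above 0.

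The remaining integrin chains split. Itga9, whose product binds tenascin and VCAM-1, stood at 16.7 and 9.56 RPKM (ratio 0.574, interval 0.551 to 0.598). Itga2b, the platelet chain CD41, stood at 3.34 and 2.4 RPKM (0.72), while the platelet genes Gp9, Ppbp and Treml1 were under 1 RPKM in both genotypes. The other platelet genes measured alone went both ways, with Pf4 at 895 and 275 RPKM and Gp1ba at 1.6 and 2.86 RPKM. Of the collagen-binding alpha chains, Itga1 was higher in the mutant at 3.05 and 3.77 RPKM (ratio 1.24, interval 1.16 to 1.32). Its log2 difference of 0.24 was -0.41 on the germ cell list's scale, and -0.07 once the trend over transcript length and GC content was taken out. Itga2 (0.421 and 0.493 RPKM) and Itga11 (0.509 and 0.344 RPKM), the other collagen-binding chains with a value of their own, were under the minimum. Taken as sums, the 11 alpha chains known to pair with beta1 that have a value of their own came to 144 RPKM in control against 91 RPKM in mutant. This was 1.29 of the Itgb1 value in control and 1.03 of it in mutant. The sum was thus lower by more than Itgb1, with ratios of 0.63 and 0.793. Itga6 alone made up 52.1% of the sum in control and 52.9% in mutant. Not every chain followed the sum: Itga1 was higher in the mutant. Itga2, under the minimum, had a ratio of 1.17 with an interval of 0.945 to 1.45 that held 1. Itga8 had a ratio of 0.871, nearer to 1 than that of Itgb1, with an interval of 0.748 to 1.02.

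Laminin chains were lower for 8 of 10 genes, beside 49.6% of all genes, with a median of -0.38. None was 2-fold different, beside 4.35% of all genes 2-fold lower and 4.4% 2-fold higher. Lama2, the alpha chain of muscle and peritubular laminin, was the most abundant alpha chain at 22.7 and 13.7 RPKM (ratio 0.602, interval 0.585 to 0.62). Lama3, an epithelial chain, stood at 10.4 and 7.92 RPKM (0.765). Lama4, a chain of vessels and mesenchyme, stood at 8.33 and 6.19 RPKM (0.743). Lama1, the chain of embryonic basement membranes, stood at 4.63 and 3.51 RPKM (0.759), so that these chains shared nearly 1 ratio while Lama2 was lower by more. Lama5 (chromosome 2, 180176373 to 180225859), the broadly expressed alpha chain of adult basement membranes, was higher in the mutant, at 8.06 and 10.6 RPKM (ratio 1.32, interval 1.27 to 1.37). Its share of the summed alpha chains was 14.9% in control and 25.4% in mutant, while that of Lama2 was 42% and 32.6%. The log2 difference of Lama5, 0.36, turned to -0.28 after rescaling to the germ cell list.

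Among the beta chains, Lamb1 and Lamb2 made up nearly all of the sum. Lamb1, a gene known as induced by retinoic acid in teratocarcinoma cells, stood at 55.9 and 42.4 RPKM, on about 17544 and 13542 reads. Its log2 difference of -0.39 (ratio 0.759, interval 0.742 to 0.776) was close to the median of the laminin chains. Lamb2, the beta chain of muscle and kidney basement membranes, stood at 22.2 and 13.8 RPKM (0.621). Lamb3 (chromosome 1, 193207699 to 193343878), the beta chain of the epidermal laminin, had the largest plain fold of all members, 5.5-fold lower at 1.01 and 0.184 RPKM. That rested on about 266 control and 49 mutant reads (ratio 0.182, interval 0.131 to 0.246), and the log2 difference with a pseudocount of 1 was -0.77. With a pseudocount of 0.1 it was -1.97.

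The gamma chains Lamc1 and Lamc3 differed from each other. Lamc1, the gamma chain of most laminins (chromosome 1, 153218922 to 153332786), stood at 23.8 and 24.5 RPKM, a ratio of 1.03 (interval 1 to 1.06) with a log2 difference of 0.04. That difference was -0.60 on the germ cell list's scale and -0.06 without the trend over length and GC content. Lamc3, a gamma chain described in testis and other tissues, was 1.6-fold lower at 11.2 and 6.99 RPKM (interval of the ratio 0.592 to 0.659). Lamc1 thus stood at 2.13 times Lamc3 in control and at 3.5 times in mutant. Summed, Lamc1 and Lamc3 were at 90% of control in the mutant, the summed alpha chains at 77.5% and the summed beta chains at 71.3%.

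Other basement membrane genes were mostly lower as well. Of 18 matrix ligand genes measured alone, 15 were below 0 and 3 above, beside 49.6% of all genes below 0. Their median was -0.50 and none was 2-fold different. Sparc, a matrix glycoprotein, was the highest at 176 and 103 RPKM. Nid2, a nidogen that links laminin to collagen IV, came nearest to 2-fold at 32.6 and 16.2 RPKM, and Nid1 stood at 18.1 and 12.4 RPKM. Col4a1, the main chain of collagen IV, stood at 65.6 and 52.3 RPKM. Agrn, the laminin-binding proteoglycan agrin, was higher at 6.54 and 10.1 RPKM, as was Fn1, fibronectin, at 40.7 and 44 RPKM. Another gene of the list, Spp1, enters none of these counts because its value is pooled with another symbol. That pooled value was past 2-fold, at 128 and 47.5 RPKM (log2 difference -1.41). Interstitial fibroblast markers had a ratio of sums of 0.571 and peritubular markers one of 0.429, while endothelial markers, from cells that also make laminin, had one of 0.964. The part of these cells in the laminin values was not tested.

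Genes of proteins that tie integrins to the cytoskeleton were lower for 16 of 18, with a median of -0.32. Over all genes, 49.6% were below 0 and 4.35% were 2-fold lower. Past 2-fold were Fermt3, the kindlin of blood cells (33.7 and 15.7 RPKM, log2 difference -1.06), and Parvg, the parvin of blood cells (21.7 and 8.12 RPKM, -1.32). Their relatives of other tissues were not past it: Fermt2 stood at 27 and 31.6 RPKM and Parva at 9.07 and 7.73 RPKM. Parvb, another parvin, was the highest of the list at 131 and 115 RPKM. Ptk2, the focal adhesion kinase, was higher at 36.2 and 49.4 RPKM, and Tln1, the talin that switches integrins on, was lower at 99.9 and 61.2 RPKM.

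Of 10 other laminin receptors and integrin-associated tetraspanins, 8 were below 0, beside 49.6% of all genes, and 2 were 2-fold lower, beside 4.35%. These were Cd63, a tetraspanin of lysosomes (113 and 41.6 RPKM), and Lgals1, a lectin that binds laminin glycans (536 and 228 RPKM). Rpsa, a ribosomal protein gene also named as a laminin receptor, was the highest at 651 and 617 RPKM. Dag1, the laminin receptor dystroglycan, stood at 64.9 and 60.9 RPKM, and Cd9, a tetraspanin of stem spermatogonia, at 117 and 72.4 RPKM. Of 7 counter-receptors of leukocyte integrins, 4 were below 0, near the 55.7% of protein-coding genes, and none was 2-fold different. These 4 were all at least 1.5-fold lower, beside 13.7% of all genes, and the median was -0.66. The ratio of sums was 1.02, with 53.6 of the 107 control RPKM from F11r. Vcam1, the ligand of alpha4 integrins, stood at 10 and 5.06 RPKM, and Icam1, the ligand of beta2 integrins, at 11 and 6.58 RPKM. F11r, a junction protein and the highest of them, was higher in the mutant at 53.6 and 68.3 RPKM.

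**Figure D3:**
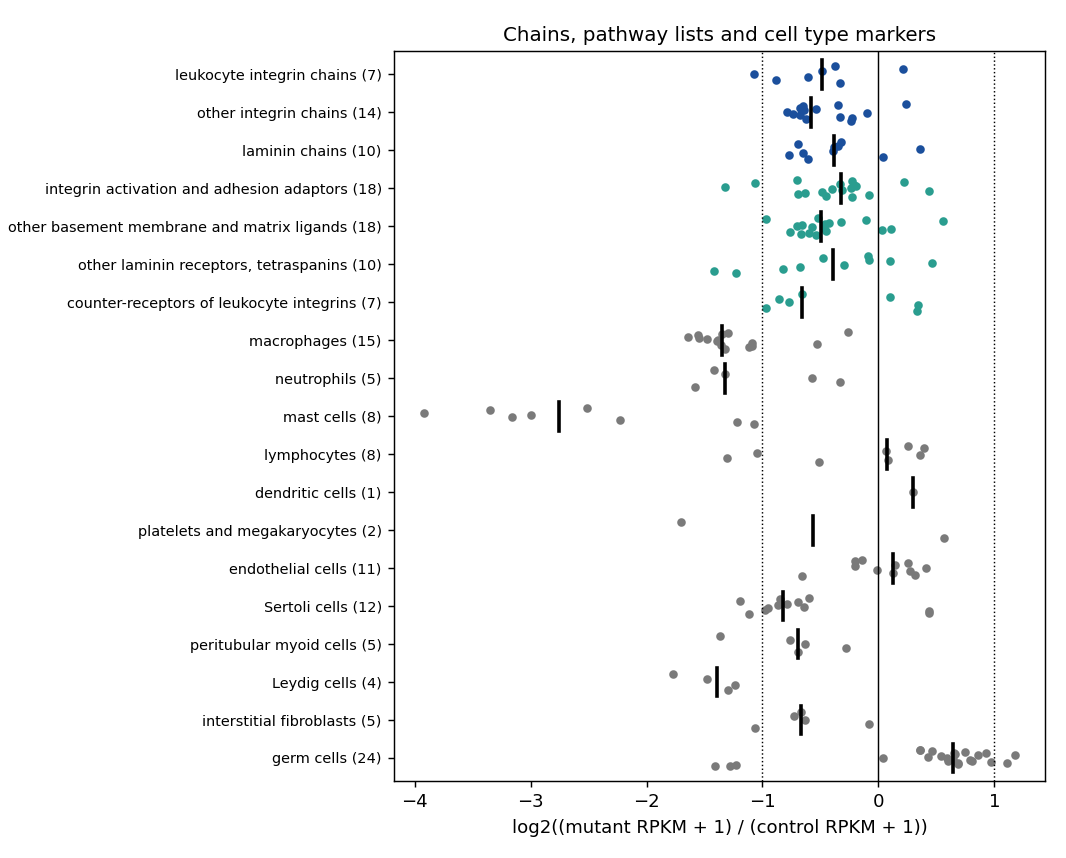
Log2 difference, mutant against control with a pseudocount of 1, of single genes in the member groups (blue), pathway lists (green) and cell type markers (grey), with the number of genes measured in brackets, a black bar at the median and dotted lines at 2-fold. The 3 member groups have medians between -0.58 and -0.38, macrophage and mast cell markers lie further left at -1.35 and -2.76, and germ cell genes lie right of 0 at 0.64.

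**Figure D4:**
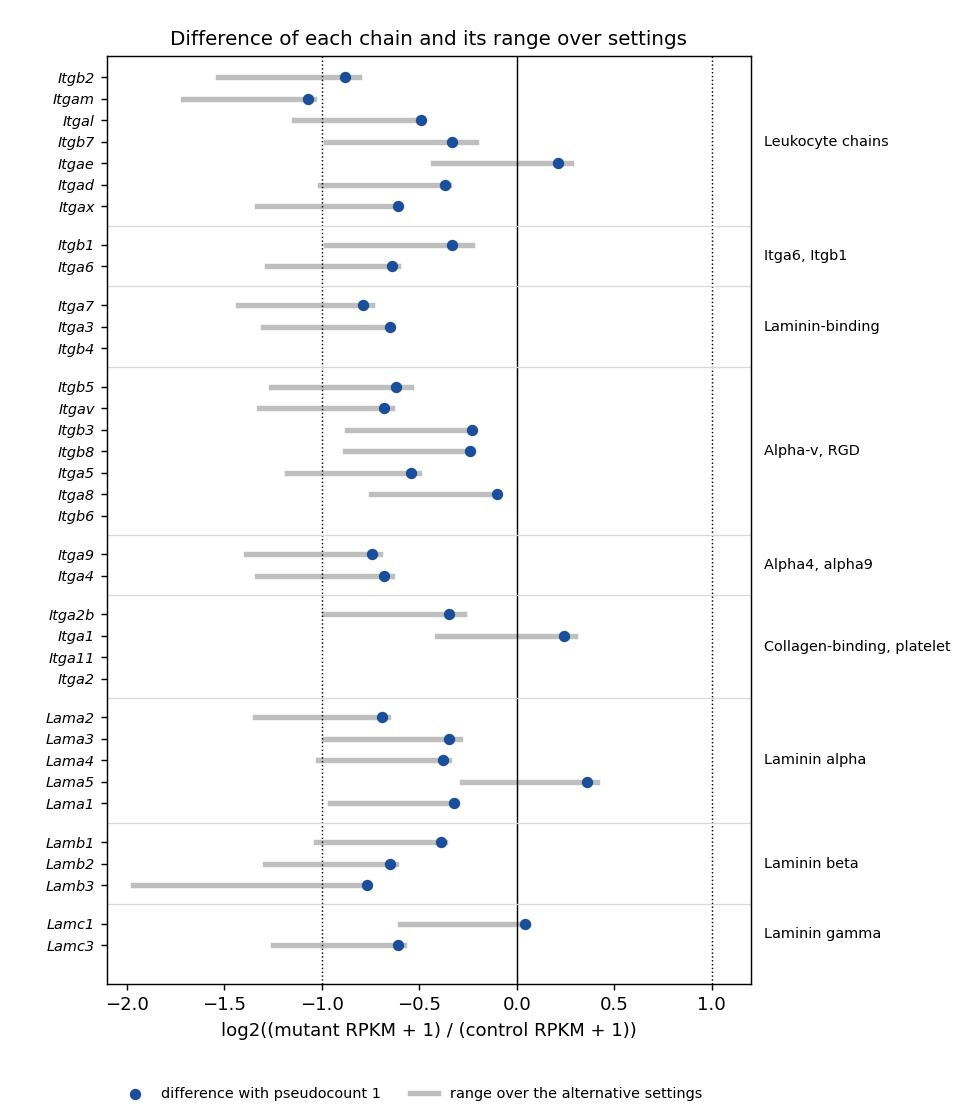
Log2 difference of each chain (points) and its range over 8 other settings of the analysis (grey bars), with dotted lines at 2-fold and empty rows for chains under 1 RPKM in both genotypes. Itgam lies left of -1 in every setting, and the bars of Itgae, Itga1, Lama5 and Lamc1 cross 0.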

How the data were processed

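RNA was measured in 4 libraries, 2 per genotype. The authors deposited RPKM, per the file headers, in 1 column for both control libraries and 1 for both mutant libraries; the submitters' processing notes name TopHat2 2.0.11 and GRCm38. The sources used here do not give the counting program, its strand setting, the annotation or the way libraries were combined. Because the values were combined, the planned limma test could not be made, and values were compared by a 2-fold rule without a p-value on log2(RPKM + 1). A gene needed 1 RPKM in either genotype, the entry with the highest mean stood for a repeated symbol, and 981 entries that pool symbols were left out. Depth was found from single-transcript genes of at least 1000 nt: 84.9% of 1522 control and 90.8% of 1509 mutant low values lay within 0.1 of a whole read. Read numbers used the longest coding transcript of GENCODE M21 less 210 nt, and intervals of ratios are exact binomial ones. Some deposited entries reach past the end of the GENCODE M21 gene. Examples are Itga4 (to 79461107 against 79333123), Itga9 (to 119043998 against 118901003) and Itgam (to 128128160 against 128118491). Whether this changed their values was not tested. Of the genes the symbols took, 1 is not reported here and enters no count or sum over the members. The other members were all described, and from the pathway lists the genes past 2-fold and the highest gene were named. Marker lists are given by counts and sums; genes named from them, and other genes of the pathway lists, were chosen after their values were seen. The members and lists were chosen with earlier results of these data known. Promoter sequences came from RefSeq (GRCm38.p6). The scripts, in Python 3.11.15 with pandas 2.3.3 and scipy 1.17.1, were tested on simulated data. Alternatives changed the pseudocount, the minimum, the scaling, the length and GC trend and the pooled entries.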

Additional observations from a re-analysis of the deposited data

How the results depend on the processing

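No paired analysis was possible because the table holds 1 combined value per genotype, and for the same reason no replicate could be left out. Setting the germ cell list's median to 0 moved the median of all genes to -0.640. Against that shift, the medians became -1.14 for all members, -1.14 for leukocyte chains, -1.03 for laminins and -1.22 for the other integrin chains. The numbers at least 2-fold lower became 19 of 31, 5 of 7, 6 of 10 and 8 of 14, beside 24.5% of all genes. It reversed Itga1 (-0.41), Itgae (-0.43), Lama5 (-0.28) and Lamc1 (-0.60), and removing the length and GC trend reversed Itga1 (-0.07) and Lamc1 (-0.06). With a pseudocount of 0.1, 3 of 31 members were 2-fold lower, 2 of them leukocyte chains and 1 a laminin, beside 6.72% of all genes. With 0.5 there were 2, of which 1 was a laminin, beside 5.41% of all genes. The members added were Itgax and Lamb3 with 0.1 and Lamb3 with 0.5. Both had passed the minimum through the control value alone. Without the minimum, the median of the other integrin chains was -0.34 over 18 genes, which adds 4 genes under 1 RPKM. Under the other settings (a minimum of 5 RPKM, quantile normalization, pooled entries kept) these counts stayed the same and the medians within 1.5 times. Under 1 RPKM, depth left few reads: 49 mutant reads for Lamb3.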

Other observations

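Some genes with integrin in their name lie outside the symbols used, because they encode binding proteins or chains of other kinds. Itgb1bp2, which encodes melusin, a muscle protein that binds the beta1 tail, was higher in the mutant at 0.972 and 2.37 RPKM (log2 difference 0.77). Itgb1bp1, which encodes an inhibitor of beta1 activation, was lower at 29.3 and 21.2 RPKM (-0.45). Itgb3bp, which encodes a centromere protein also found to bind the beta3 tail, stood at 6.42 and 7.54 RPKM (0.20). Itgb2l and Itgbl1 were under 1 RPKM in both genotypes.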
